A study of Homo sapiens with 20 samples.

Results

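RUNX1 chromatin immunoprecipitation sequencing (ChIP-seq) was examined at the genes of the RUNX family and of its core-binding partners: RUNX1, RUNX2, RUNX3, CBFB, CBFA2T2, CBFA2T3 and RUNX1T1. All RUNX1 peaks within 50 kb of the RefSeq span of one of these 7 genes were taken, by position alone, which gave 44 of the 26642 peaks in the count table. The cells were of the THP-1 line, which was established from a human acute monocytic leukemia. All carried a doxycycline-inducible shRNA cassette and all received doxycycline, with a shRNA against PU.1 (gene SPI1) in the knockdown cells and a scramble shRNA in the control cells. An antibody against RUNX1 was used for 12 of the 20 samples, and the 8 made with IgG were not analysed here. There were 6 control and 6 knockdown libraries in 2 experimental rounds (batches), with 3 controls in each round, 2 knockdown libraries in batch 1 and 4 in batch 2. All groups came from 1 cell line, so the values describe this line. The control and knockdown cells were separate derivatives of it with different shRNAs. An effect of PU.1 loss therefore cannot be told apart from other differences between these derivatives.

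RUNX1, RUNX2 and RUNX3 are transcription factors that bind DNA through the conserved Runt domain, and CBFB is the non-DNA-binding subunit that strengthens this binding. CBFA2T2, CBFA2T3 and RUNX1T1 form the ETO family of corepressors, and RUNX1T1 and CBFA2T3 are known as fusion partners of RUNX1 in leukemia. RUNX1 is required for definitive hematopoiesis, RUNX2 is the master regulator of bone formation, and RUNX3 acts in T lymphocytes and other immune cells. RUNX genes are known to carry a distal (P1) and a proximal (P2) promoter and to be bound by RUNX proteins themselves. The comparison therefore asks where RUNX1 occupied the genes of its own complex, and whether this occupancy changed when PU.1 was reduced. ChIP-seq reads binding only, so neither transcript nor protein levels of these genes, nor the depth of the PU.1 knockdown, nor markers of the cell type were measured in these libraries.

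The control libraries held 630247 to 1199004 reads in peaks and the knockdown libraries 938745 to 1719840. Counts were divided by DESeq2 size factors, and these values are called normalised read counts. A peak was called gained or lost in the knockdown at an adjusted p under 0.05 and a fold change over 1.1 in either direction, in a DESeq2 fit of all 12 libraries with batch as a covariate and Benjamini-Hochberg adjustment over all 26642 peaks. All log2 fold changes are knockdown over control and are given ± SE. All p-values measure the spread between immunoprecipitations of 1 line, and not between independently derived knockdown or control cells. Size factors set the typical peak to no change, so a shift shared by all peaks cannot be seen.

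Of the listed RefSeq promoters, 3 promoters of RUNX genes (GRCh38.p14, 250 bases before to 50 bases after the start) lay under a RUNX1 peak. They are shown after the values were seen, since only the RUNX2 start among them was called. Capitals mark the RUNX core motifs ACCACA and ACCGCA, which were searched on both strands, so that a core on the other strand reads TGTGGT or TGCGGT. Sequences run 5′ to 3′ on the strand of the gene.
RUNX1 proximal promoter, chr21:34888650-34888949, minus strand: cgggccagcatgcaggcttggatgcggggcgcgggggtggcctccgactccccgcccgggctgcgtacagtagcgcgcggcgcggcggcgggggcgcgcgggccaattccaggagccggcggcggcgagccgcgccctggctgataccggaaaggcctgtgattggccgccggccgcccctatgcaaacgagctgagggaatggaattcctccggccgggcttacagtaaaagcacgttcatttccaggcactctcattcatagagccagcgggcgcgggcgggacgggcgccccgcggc
RUNX2 distal promoter, chr6:45328080-45328379, plus strand: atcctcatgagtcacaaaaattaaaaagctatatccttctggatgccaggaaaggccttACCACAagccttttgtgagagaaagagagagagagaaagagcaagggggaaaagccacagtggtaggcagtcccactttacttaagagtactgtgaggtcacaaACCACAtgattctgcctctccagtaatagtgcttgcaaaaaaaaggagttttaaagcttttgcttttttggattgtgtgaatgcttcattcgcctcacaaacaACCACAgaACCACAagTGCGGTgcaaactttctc
RUNX3 distal promoter, chr1:24964961-24965260, minus strand: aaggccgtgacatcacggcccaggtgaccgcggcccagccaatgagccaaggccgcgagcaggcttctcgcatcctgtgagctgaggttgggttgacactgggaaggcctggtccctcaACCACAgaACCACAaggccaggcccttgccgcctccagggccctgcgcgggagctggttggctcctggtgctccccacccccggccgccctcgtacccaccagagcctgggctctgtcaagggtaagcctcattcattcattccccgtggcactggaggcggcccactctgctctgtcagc

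The RUNX2 distal promoter held 4 copies of ACCACA and 1 of ACCGCA, the RUNX3 distal promoter held 2 copies of ACCACA, and the RUNX1 proximal promoter held neither. Among 35116 RefSeq promoters of the same length, 13.1% held ACCACA, 1.31% held it 2 or more times, 0.125% held it 3 or more times, and 7.29% held ACCGCA. Among the 8371 promoters that overlapped a RUNX1 peak, as these 3 do, 12.4% held ACCACA, 1.29% held it 2 or more times and 14.2% held ACCGCA. The RUNX2 and RUNX3 distal promoters shared an unbroken run of 18 bases, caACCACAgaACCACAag, with 2 RUNX cores in tandem. These were the only 2 of the 35116 promoters that held this run on either strand, a search made after both sequences had been read. The RUNX1 distal promoter is not among the listed promoters, so whether it holds the run was not examined. The sequence GAGGAA, the core of the PU.1 motif, occurred once in the RUNX1 proximal promoter and in 27.9% of all promoters, and was not found in the other two. The other listed promoters of these genes, the proximal ones of RUNX2 and RUNX3 and those of CBFA2T2 and CBFA2T3, overlapped no RUNX1 peak and held no RUNX core. A motif match describes the sequence and is not a binding site by itself.

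The RUNX1 gene held 16 of the 44 peaks, CBFA2T3 9, RUNX2 6, RUNX3 6, CBFA2T2 4 and CBFB 3. No peak lay within 50 kb of RUNX1T1, and 19.2% of 20037 protein-coding genes likewise had none in their windows. The nearest peak to RUNX1T1, at chr8:91661517-91662896, lay 292 kb away and is no member. The 16 peaks at RUNX1 exceeded the number at 99.9% of all protein-coding genes and at 99.2% of the 626 genes between 200 and 300 kb long. The 44 peaks had a median width of 912.5 bp and a median mean normalised read count of 33.9, against 889 bp and 31.2 over all peaks.

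On PU.1 knockdown, 13 of the 44 peaks were gained and 10 were lost. This is 52.3% of the members, where 42% of all peaks were called, 21.3% gained and 20.7% lost. The members had a median log2 fold change of -0.01 and all peaks one of -0.02, a value near 0 that the size factors set. Within batch 1 alone 6 members were called, where 12% of all peaks were, and within batch 2 alone 15 were, where 25.8% of all peaks were. All 6 peaks called in batch 1 were called in batch 2 as well. All 23 called peaks had the same sign in both batches, as did 33 of the 44 members in all. The calls came from a fit of both batches together, so this agreement among called peaks was largely set by that choice. The shares of all peaks with the same sign, or called in both batches, were not computed. No member showed a genotype by batch interaction, neither after adjustment (0 by DESeq2 and 0 by edgeR) nor at an unadjusted p under 0.05, where 2.51% of all peaks did. In 16 members all knockdown libraries lay on the same side of all control libraries of their own batch in both batches, 8 above and 8 below, and 28.3% of all peaks did so. The edgeR quasi-likelihood test called 23 members as well, at a background of 47.1%, and in batch 1 alone it called 13, where it called 27.3% of all peaks.

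**Figure D1:**
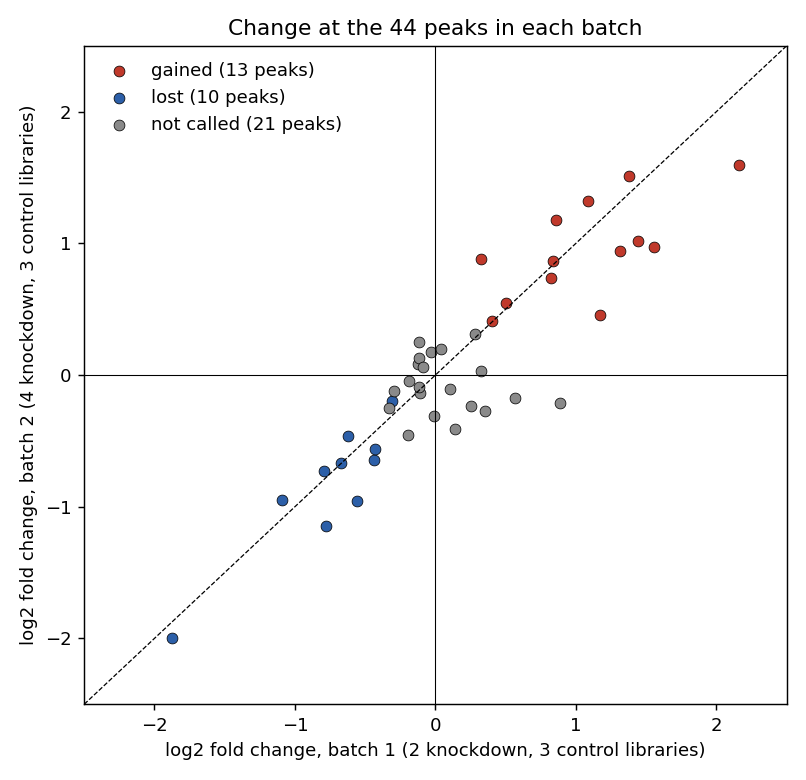
Log2 fold change (knockdown over control) in batch 1 on the x axis and in batch 2 on the y axis for the 44 peaks, coloured by the call over all 12 libraries, with the dashed line marking equal change. All 23 called peaks lie in the lower left or upper right quadrant, and the peaks that differ in sign between batches are all uncalled. The calls were made on both batches together, which favours this agreement in sign.

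The calls did not fall into a single direction at any gene with 2 or more of them. RUNX1 had 3 gained and 2 lost peaks of 16, RUNX2 3 and 1 of 6, RUNX3 2 and 2 of 6, CBFA2T2 1 and 1 of 4, and CBFA2T3 4 and 3 of 9. The single call at CBFB was a loss. Taking called peaks that followed each other along a gene, 14 of 17 successive pairs changed in opposite directions, with 3.96 kb to 213 kb between centres, an ordering noticed after the calls were made. Over all called peaks, 41.9% of 7944 successive pairs at most 213 kb apart did so. Without the weakest call, the RUNX1 loss at chr21:35026528-35027361 (left out after the values were seen), the members gave 12 of 16. That call was only 1 of 5 that were not kept in every refit. The others were the gain at chr21:35003116-35004382 and the losses at chr6:45445276-45446178, chr1:24978479-24979202 and chr20:33687095-33687904. Each of them was part of at least 1 opposite pair, and without its loss RUNX2 had only gains. The pairs left without all 5 were not counted, so whether the alternation holds without them was not tested. Summed over each gene's peaks, the normalised read count per library was 1084 ± 43.7 (SD, n = 6) in control and 1093 ± 33.2 (SD, n = 6) in knockdown at RUNX1. The sums were 268.5 ± 15.3 and 312.5 ± 22.1 at RUNX2, 238.2 ± 24.7 and 227.5 ± 14.8 at RUNX3, and 320.3 ± 16.7 and 394.3 ± 28.0 at CBFA2T3. They were 104.4 ± 14.7 and 84.4 ± 6.18 at CBFB and 112.1 ± 10.6 and 99.5 ± 9.83 at CBFA2T2. The sum at RUNX1 therefore differed by less than the spread between libraries, although 5 of its peaks were called. At CBFA2T3 every knockdown library had a higher sum than every control library, at 367.0 to 432.9 against 305.2 to 348.3. The peak chr16:88839872-88841101, outside the gene, went from a mean of 45.7 in control to 125.1 in knockdown. Gains and losses at the other 8 peaks offset each other in the sum. Without chr16:88839872-88841101, left out after the values were seen, these 8 peaks summed to 274.5 ± 15.1 (SD, n = 6) in control. In knockdown they summed to 269.1 ± 26.0 (SD, n = 6), and the ranges overlapped.

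**Figure D2:**
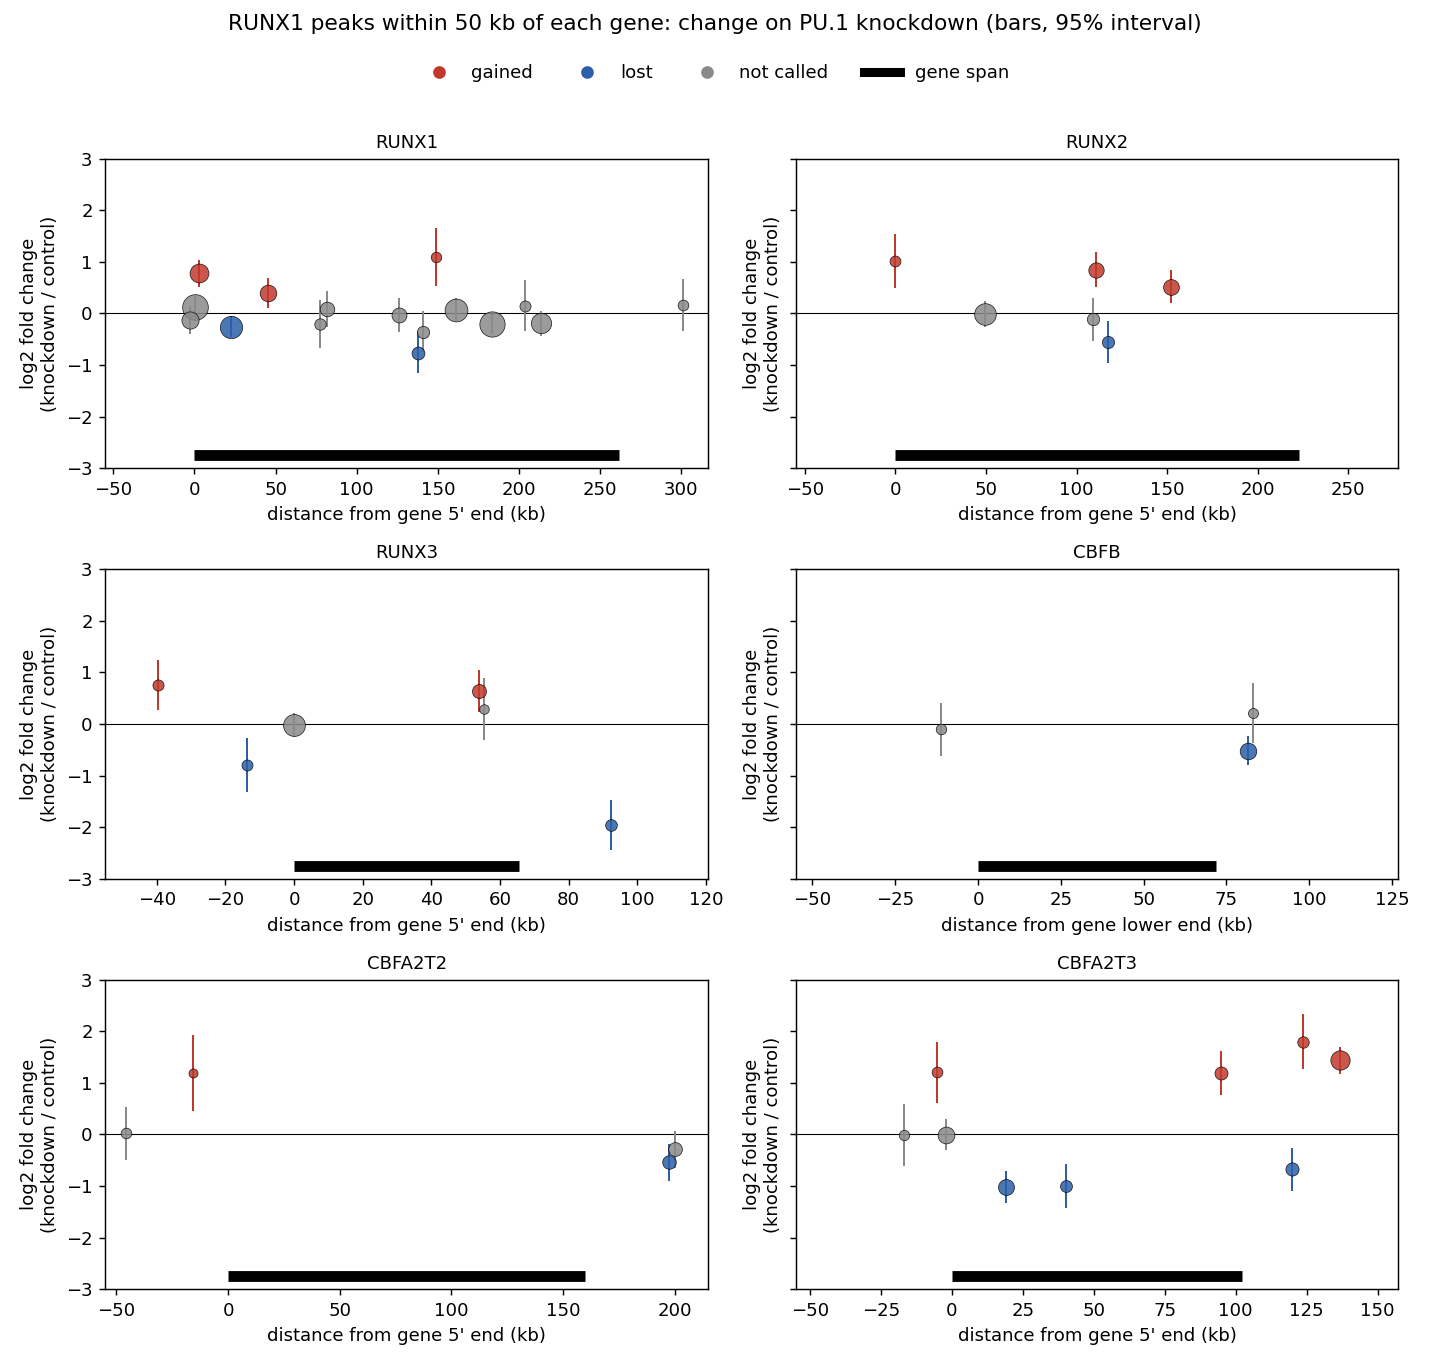
Log2 fold change of each peak with its 95% interval against its distance in kb from the 5′ end of the gene (from the lower-coordinate end for CBFB, whose strand was not listed), with 1 panel per gene, the gene span as a black bar and point area growing with the mean normalised read count. Gained and lost peaks are interspersed along RUNX1, RUNX2, RUNX3 and CBFA2T3, and the largest points of RUNX1 and RUNX3 sit near 0.

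RUNX1 spans chr21:34787801-35049302 on the minus strand, and 14 of its 16 peaks lay within it. The strongest was the peak at its distal start, chr21:35048707-35049881, higher than 98.7% of all peaks by mean count. Control libraries gave 142 to 167 normalised read counts there (median 146), and knockdown libraries 132 to 195 (median 161). The ranges overlapped, and the log2 fold change of 0.12 ± 0.11 was not called (adjusted p = 0.383, DESeq2; 95% interval of the fold 0.938 to 1.26). The peak at the proximal start, chr21:34887683-34888886, covers 237 bases of the proximal promoter shown above. It held 95 to 169 counts in control (median 113) and 110 to 135 in knockdown (median 125), and again the ranges overlapped. Its log2 fold change of 0.08 ± 0.11 was not called either (adjusted p = 0.623, DESeq2), with a 95% interval of the fold from 0.904 to 1.23. By mean count the proximal start exceeded 97.0% of all peaks, so both RUNX1 starts were strongly occupied, and no change was detected at either.

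The clearest change at RUNX1 lay inside the gene next to its distal start, in a gained peak at chr21:35045363-35047383, with its centre 2.93 kb downstream of that start. Its count was 53.0 to 71.1 in control (median 58.5) and 87.9 to 110 in knockdown (median 105). Every knockdown library lay above every control library, and the log2 fold change was 0.78 ± 0.13 (adjusted p = 8.51e-08, DESeq2). It was called within batch 1 (0.83, adjusted p = 0.0259) and within batch 2 (0.74, adjusted p = 0.000982). The 2 peaks therefore lie side by side in the same libraries, 1 called gained and 1, the stronger, not called.

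The next 3 peaks of RUNX1 are named by the rule for called peaks. At chr21:34900398-34900950, 11699 bp upstream of the proximal start, the count was 8.07 to 14.1 in control (median 12) and 13.7 to 30.9 in knockdown (median 27.4). The knockdown libraries were above the controls of their own batch, although the ranges touched across batches, and the log2 fold change was 1.1 ± 0.29 (adjusted p = 0.000571, DESeq2). A lost peak followed 10.6 kb further upstream, at chr21:34910703-34911892, with 29.5 to 49.4 in control (median 44.2) and 20.5 to 26.4 in knockdown (median 23.9). The groups did not overlap, with a log2 fold change of -0.76 ± 0.20 (adjusted p = 0.000701, DESeq2). At chr21:35003116-35004382 the count was 39.9 to 69.2 in control (median 50.1) and 58.4 to 79.2 in knockdown (median 69.9). Its ranges overlapped, and the gain of 0.40 ± 0.15 (adjusted p = 0.0199, DESeq2) was not called without control replicate 4 (0.32, adjusted p = 0.0924), control replicate 6 (0.38, adjusted p = 0.0609) or knockdown replicate 2 (0.37, adjusted p = 0.0725). Neither batch alone called this gain (DESeq2, adjusted p = 0.444 in batch 1 and 0.141 in batch 2). The fifth call, a loss at chr21:35026528-35027361, was weak, at -0.25 ± 0.11 (adjusted p = 0.0473, DESeq2), and was kept in only 6 of 20 other settings. The 11 peaks at RUNX1 that were not called had log2 fold changes between -0.35 and 0.17. Among them chr21:34864833-34866623, with means of 164 in control and 143 in knockdown (log2 fold change -0.20 ± 0.10, adjusted p = 0.0862, DESeq2), was called lost when control replicate 6 was left out (adjusted p = 0.0314).

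RUNX2 spans chr6:45328330-45551082 on the plus strand, and all 6 of its peaks lay within it. Its distal start carried the weakest of them, chr6:45327893-45328575, which covers all 300 bases of the distal promoter with the 5 RUNX cores. The count was 7.03 to 23.4 in control (median 13.8) and 21.4 to 32.0 in knockdown (median 26.5). Knockdown libraries exceeded the controls within each batch, while the highest control, from batch 1, exceeded the lowest knockdown library, from batch 2. The log2 fold change was 1.02 ± 0.26 (adjusted p = 0.00054, DESeq2), which is a fold of 2.02 with a 95% interval from 1.41 to 2.89. Within batches it was 0.86 in batch 1 (adjusted p = 0.262, not called) and 1.18 in batch 2 (adjusted p = 0.0162). Raw read counts at this peak were only 6 to 18 in the control libraries. A filter of at least 10 counts in every library therefore removes it. The antisense gene SUPT3H overlaps this start, so the peak cannot be given to RUNX2 alone.

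Of the 4 peaks at a start of RUNX1, RUNX2 or RUNX3, only this one was called, where 42% of all peaks were. With 4 peaks and no background for start peaks, this count cannot be told apart from that share. The RUNX3 distal start, chr1:24964464-24965831, was the strongest peak of RUNX3, with 76.3 to 127 counts in control (median 119) and 90.4 to 127 in knockdown (median 112). The ranges overlapped almost fully, and its log2 fold change of -0.02 ± 0.12 was not called (adjusted p = 0.926, DESeq2; 95% interval of the fold 0.841 to 1.16). The 2 distal promoters with the shared run of tandem RUNX cores thus had unlike levels, with means of 13.9 and 113 in control. Whether the starts differed in their response was tested on the ratio of 2 peaks within each library, with an exact two-sided permutation test of the genotype within batches. The 6 pairs were compared after their single values had been seen. The log2 ratio of the RUNX2 start over the RUNX3 start rose by 1.02 in the knockdown (exact permutation p = 0.00857, adjusted p = 0.0171 over 6 pairs). The RUNX2 start also rose relative to the RUNX1 proximal start, by 0.94 (exact p = 0.00286, the smallest that 350 arrangements allow, adjusted p = 0.0171), and relative to the RUNX1 distal start, by 0.91 (exact p = 0.00571, adjusted p = 0.0171). These 3 pairs share the RUNX2 peak, so they are not independent of each other or of its call. The other 3 pairs gave adjusted exact p between 0.621 and 0.789, with differences in log2 ratio between -0.04 and 0.11.

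**Figure D3:**
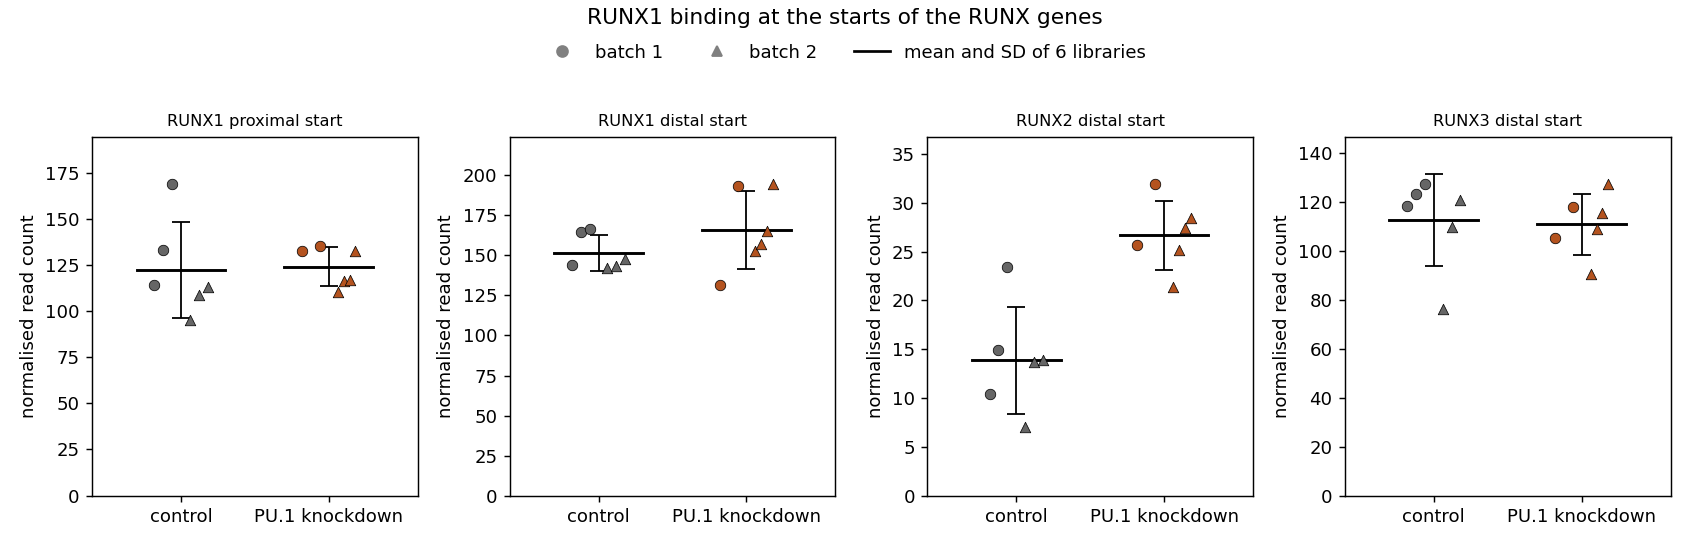
Normalised read count (y axis, from 0) of the 4 peaks at RUNX gene starts in each of 6 control and 6 knockdown libraries, with circles for batch 1, triangles for batch 2, and bars for the mean and SD. The RUNX2 distal start rises from a mean of 13.9 to 26.7, with the groups apart within each batch but not across batches, and the groups overlap in at least 1 batch at each of the other 3 starts.

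Further inside RUNX2, 2 peaks were gained and 1 was lost. At chr6:45438397-45439509 the count was 28.6 to 45.1 in control (median 34.3) and 51.1 to 72.4 in knockdown (median 70.3). All knockdown libraries exceeded all controls, and the log2 fold change was 0.85 ± 0.17 (adjusted p = 7.88e-06, DESeq2). The next peak, with its centre 6.77 kb away at chr6:45445276-45446178, went the other way, from 28.1 to 36.4 in control (median 34.9) to 14.9 to 25.7 in knockdown (median 23.7). It did not overlap between groups, with a log2 fold change of -0.56 ± 0.21 (adjusted p = 0.0217, DESeq2). This loss was not called without control replicate 4, control replicate 6 or knockdown replicate 6, where the adjusted p was 0.0576, 0.0689 and 0.0602. Neither batch alone called it (DESeq2, adjusted p = 0.546 in batch 1 and 0.115 in batch 2). The log2 ratio of the first peak over the second lay between -0.29 and 0.45 in the 6 control libraries and between 1.09 and 2.19 in the 6 knockdown libraries. At chr6:45480139-45481038 the count was 36.4 to 51.6 in control (median 43.9) and 51.1 to 77.3 in knockdown (median 63.0). The ends of the ranges overlapped, but the groups were apart within batches, with a log2 fold change of 0.52 ± 0.16 (adjusted p = 0.0051, DESeq2). This gain was called in neither batch alone (DESeq2, adjusted p = 0.350 in batch 1 and 0.0625 in batch 2).

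The strongest peak in RUNX2, chr6:45377024-45378757, overlaps the promoter of SUPT3H, which encodes a subunit of the SAGA coactivator complex. It held 100.1 to 147 counts in control (median 105) and 72.7 to 139 in knockdown (median 112), and the knockdown range reached beyond the controls on the lower side. Its log2 fold change was -0.02 ± 0.13 (adjusted p = 0.935, DESeq2). The strongest peaks of RUNX1, RUNX2 and RUNX3 were therefore all uncalled.

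RUNX3 spans chr1:24899511-24965138 on the minus strand, with 3 peaks within it and 3 outside. The largest loss among all 44 peaks lay 26484 bp beyond the 3′ end of RUNX3, at chr1:24872318-24873027, where RUNX3 was the nearest protein-coding gene. Its count was 36.3 to 47.2 in control (median 37.9) and 7.13 to 13.7 in knockdown (median 10.3), so the highest knockdown library lay far below the lowest control. The log2 fold change was -1.96 ± 0.25 (adjusted p = 8.11e-14, DESeq2), a fold of 0.258 with a 95% interval from 0.185 to 0.360. It was called in batch 1 (-1.87, adjusted p = 0.00146) and in batch 2 (-2.0, adjusted p = 6.70e-07).

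A gain lay in the gene at chr1:24910959-24911642, with 18.6 to 40.3 counts in control (median 33.7) and 38.4 to 68.2 in knockdown (median 45.7). The ranges overlapped slightly, and the log2 fold change was 0.64 ± 0.21 (adjusted p = 0.00619, DESeq2), of which batch 1 gave 0.33 and batch 2 gave 0.88. Upstream of the distal start, chr1:24978479-24979202 was lost, from 17.3 to 42.2 in control (median 25.2) to 9.13 to 22.4 in knockdown (median 16.2). This log2 fold change of -0.79 ± 0.27 (adjusted p = 0.00935, DESeq2) was -0.66 without knockdown replicate 1 (adjusted p = 0.0519) and -0.59 without control replicate 5 (adjusted p = 0.101), and was then not called. The farthest upstream peak, chr1:25004270-25005202, was gained, from 10.4 to 23.2 in control (median 14.9) to 21.8 to 30.1 in knockdown (median 27.7). Only the ends of the ranges overlapped, and the log2 fold change was 0.75 ± 0.25 (adjusted p = 0.00828, DESeq2). Neither batch alone called this gain, at 1.17 in batch 1 (adjusted p = 0.0998) and 0.46 in batch 2 (adjusted p = 0.350). The sixth peak of RUNX3, at 12.2 counts in control and 14.3 in knockdown, was not called. The called peaks around RUNX3 thus alternated between loss and gain, with the start in between not called. This order rests on the loss at chr1:24978479-24979202, without which the gains follow each other.

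No peak lay within CBFB, which spans chr16:67029149-67101058 and encodes the shared beta subunit, and 3 lay in its window. The strongest, chr16:67109765-67111221, lay 8707 bp outside the gene and overlaps the promoter of the neighbouring gene PHAF1. It held 55.5 to 79.0 counts in control (median 72.9) and 44.3 to 55.7 in knockdown (median 49.3). The highest knockdown library reached just above the lowest control, from the other batch, and the loss amounted to -0.52 ± 0.15 on the log2 scale (adjusted p = 0.00158, DESeq2). The other 2 peaks, with means of 14.7 to 18.8 in control and 17.0 to 17.5 in knockdown, were not called.

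CBFA2T2 spans chr20:33490096-33650030 on the plus strand and also held no peak within its span. A small peak 15487 bp upstream of it, chr20:33474109-33474609, was gained, from 0 to 13.7 counts in control (median 4.93) to 11.9 to 23.3 in knockdown (median 14.0). It lies among the weakest 2.29% of all peaks by mean count, and the ranges overlapped. The log2 fold change was 1.19 ± 0.38 (adjusted p = 0.00545, DESeq2), with a 95% interval of the fold from 1.37 to 3.81, and neither batch called it alone. On the other side of the gene, 2 peaks lay beside E2F1, which encodes a cell cycle transcription factor. The nearer one, chr20:33687095-33687904, 710 bp from E2F1, fell from 31.7 to 56.5 in control (median 45.1) to 27.7 to 31.6 in knockdown (median 30.1), with no overlap but with ends that nearly met. Its log2 fold change was -0.54 ± 0.18 (adjusted p = 0.00996, DESeq2). Neither batch alone called this loss (DESeq2, adjusted p = 0.253 in batch 1 and 0.210 in batch 2). The median peak of the surrounding 10 Mb window moved by -0.20, and relative to that median the change was -0.34 with an adjusted p of 0.131, which is not called. The second, chr20:33689927-33690953, the strongest in the window, held 38.7 to 50.3 in control (median 41.4) and 29.7 to 45.7 in knockdown (median 33.1), and was not called (DESeq2, -0.29 ± 0.18, adjusted p = 0.19). The regional median at the other 5 genes lay between -0.02 and 0.04.

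CBFA2T3, also known as ETO2, spans chr16:88874858-88977207 on the minus strand. Its window had the largest share of called peaks among the member genes, 7 of 9, where 42% of all peaks were called. Only 3 of the 9 peaks lay within it. The strongest response among all 44 peaks by adjusted p was a gain at chr16:88839872-88841101, 33757 bp beyond its 3′ end and within the gene GALNS, which encodes a lysosomal sulfatase. The count was 42.2 to 48.4 in control (median 46.2) and 113 to 131 in knockdown (median 127). All control libraries lay close together and far below all knockdown libraries, and the log2 fold change was 1.44 ± 0.13 (adjusted p = 3.89e-24, DESeq2), a fold of 2.71 with a 95% interval from 2.26 to 3.26. Both batches called it, at 1.38 (adjusted p = 3.70e-05) and 1.51 (adjusted p = 2.07e-12).

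A second gain in GALNS, chr16:88853242-88853878, rose from 4.61 to 20 in control (median 8.0) to 27.7 to 47.6 in knockdown (median 35.1), without overlap. Its log2 fold change of 1.80 ± 0.27 was the largest gain among the 44 peaks (adjusted p = 1.23e-09, DESeq2). Within CBFA2T3, near its 3′ end, the peak at chr16:88882040-88882877, rose from 11.7 to 27.4 (median 19.5) to 35.7 to 55 (median 48.5), again without overlap. The log2 fold change there was 1.19 ± 0.22 (adjusted p = 5.3e-07, DESeq2). Further towards the 5′ end the direction turned. At chr16:88957461-88958853 the count fell from 62.1 to 93.3 in control (median 72.8) to 28.5 to 41.5 in knockdown (median 35.5), with no overlap and a log2 fold change of -1.01 ± 0.16 (adjusted p = 3.15e-09, DESeq2). All 4 of these peaks were called in each batch.

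The other 3 calls at CBFA2T3 fall outside the naming rule and are described after their values were seen. Within the gene, chr16:88936294-88937402 was lost, with a mean of 35.1 in control and 17.5 in knockdown (DESeq2, log2 fold change -1.0, adjusted p = 3.73e-05). At the promoters of GALNS and TRAPPC2L, chr16:88856682-88858362 was lost, from a mean of 42.5 to 26.1 (log2 fold change -0.67, adjusted p = 0.00586), although it lies 3.96 kb from the second gained peak in GALNS. Upstream of CBFA2T3, chr16:88982267-88982983 was gained, from 12.9 to 26.5 (DESeq2, log2 fold change 1.2, adjusted p = 0.000337). Its ranges overlapped, with 7.37 to 24.7 in control and 8.31 to 39.3 in knockdown. Batch 1 alone called none of these 3 peaks (DESeq2, adjusted p = 0.229, 0.307 and 0.121 in the order given). Batch 2 alone called the first and the third (adjusted p = 0.00279 and 0.0214) but not the second (adjusted p = 0.0699). The peak 1282 bp upstream of the gene's 5′ end, at means of 62.2 and 61.5, was not called. The 3 peaks within CBFA2T3 were thus all called, 1 gained at the 3′ side and 2 lost towards the 5′ end.

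**Figure D4:**
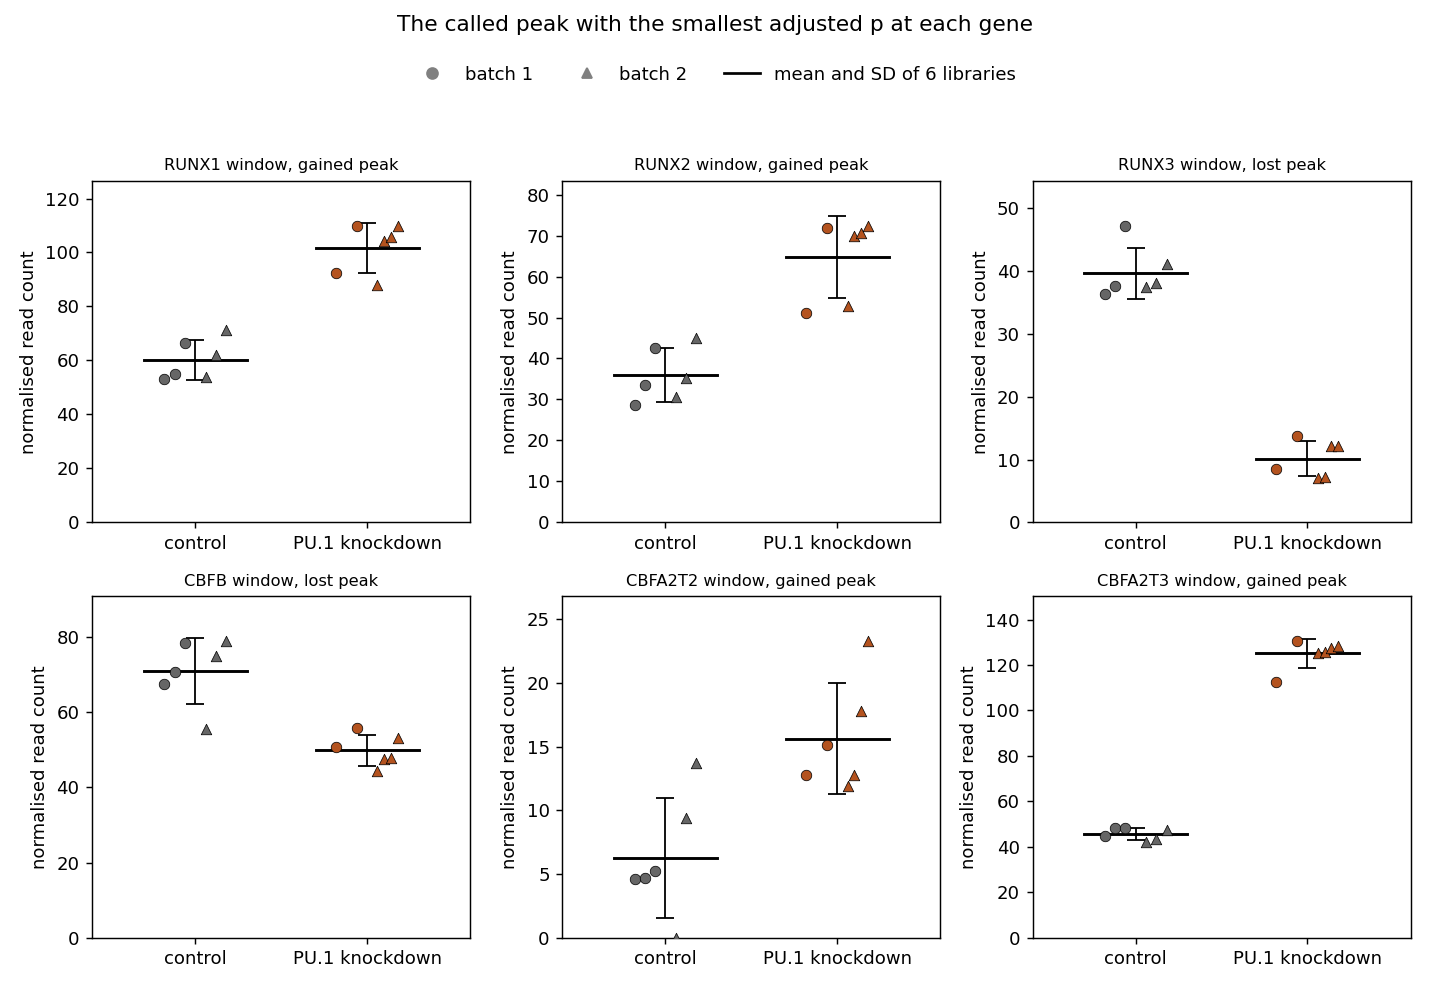
Normalised read count (y axis, from 0) in each of 6 control and 6 knockdown libraries for the called peak with the smallest adjusted p at each gene, with circles for batch 1, triangles for batch 2, and bars for the mean and SD. The gain at CBFA2T3 (42.2 to 48.4 against 113 to 131) and the loss at RUNX3 (36.3 to 47.2 against 7.13 to 13.7) show no overlap, whereas the gain at CBFA2T2 overlaps.

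The peak most like the CBFA2T3 gain in its pattern over the 12 libraries was sought among 6860 peaks outside the 7 windows with a mean of at least 50. By Pearson's r of log2(normalised read count + 1), the nearest 5 lay in or near NAGS (r = 0.992), ERCC1 (0.992), MGRN1 (0.990), TMEM255B (0.989) and DESI1 (0.988). All 5 were higher in the knockdown, and 405 of the 6860 peaks had r above 0.9. The libraries share genotype and batch, so this likeness is a description of the 12 points.

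By position, 8 of the 44 peaks overlapped a listed promoter of any gene or lay within 1 kb of a member's start. Of these, 1 was gained, 2 were lost and 5 were not called. Of the other 36, 12 were gained, 8 were lost and 16 were not called. The 8 include peaks at promoters of neighbouring genes, among them SUPT3H, PHAF1 and GALNS. The share of calls at and away from promoters over all peaks is not given here. With only 8 peaks and no such background, whether promoter peaks respond less cannot be read from these counts. The start peaks had a median mean count of 102 and the others of 28.8, so the 2 sets differed in level as well as in position.

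Other genes of the pathway were counted in the same way. Around 19 genes for RUNX cofactors (HDAC1, HDAC3, NCOR1, SIN3A, TLE1, TLE3, TLE4, EP300, CREBBP, KAT6A, KAT6B, KMT2A, PRMT1, SUV39H1, HIPK2, CDK6, TCF3, TCF4 and TCF12) there were 78 peaks. Of these 10 were gained and 14 were lost, 30.8% in all, below the 42% of all peaks, with a median log2 fold change of -0.04. Relative to the median of each 10 Mb window the split was 14 gained and 10 lost. The edgeR test called 14 gained and 14 lost, where it called 47.1% of all peaks. Neither direction therefore held across these settings. Of the 19 genes, 4 had only gains, 6 only losses, 4 both and 5 neither. Around 9 genes for transcription factors that bind with RUNX1 in blood progenitors (TAL1, LYL1, LMO2, GATA2, ERG, FLI1, SPI1, CEBPA and ETS1) there were 42 peaks, of which 8 were gained and 10 were lost, 42.9% in all and close to the 42% of all peaks, with a median of -0.05. Relative to the 10 Mb windows these were 9 gained and 8 lost, and edgeR called 8 gained and 11 lost.

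SPI1, the gene of PU.1 itself, had 9 peaks, with none gained and 4 lost, where 42% of all peaks were called and 20.7% were lost. Its most changed peak, at chr11:47390876-47391526, fell from 48.0 ± 4.27 (SD, n = 6) to 13.2 ± 2.74 (SD, n = 6), a log2 fold change of -1.87 ± 0.22 (adjusted p = 5.16e-16, DESeq2). The median of that 10 Mb window was -0.29.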

How the data were processed

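The deposited table gives raw read counts per peak for the 12 RUNX1 libraries. The authors' methods state alignment by bowtie2, removal of duplicates and of reads off the primary chromosomes, and macs2 peak calling for each condition in each batch. Peaks reproducible between batches by IDR were merged over conditions and counted with featureCounts. SAMtools and bedtools are also listed in the submitters' processing notes, and versions were not given in the sources used here. The notes list both GRCm38 and GRCh38. The coordinates were read as GRCh38, since 24.4% of peaks were at most 1 kb from a GRCh38 protein-coding gene end, against 5.48% to 7.58% after shifting them. Peaks were called on the compared libraries, so peak choice and groups are linked.

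Groups and batches came from the labels. DESeq2 1.42.0 and edgeR 4.0.16 (R 4.3.3) were fitted to all 26642 peaks, and both were tested on simulated data. All 44 members entered the tests. Intervals are 95% Wald intervals of the DESeq2 fold change. Named are each gene's strongest peak, peaks within 1 kb of a start and up to 4 called peaks with the smallest adjusted p. Starts and strands came from RefSeq promoters, which list neither CBFB, RUNX1T1 nor the RUNX1 distal start, for which the gene end was used. Peak ratios used counts + 0.5. Members and lists were chosen with earlier results of these data known. A gene of the planned cofactor list is not reported here and was left out of its counts. The 30 pairs of libraries of 1 genotype, within and across batches, differed by more than counting noise (chi-square per degree of freedom 1.29 to 2.24). Same-numbered libraries of the 2 genotypes did not deviate together (r = -0.08 to 0.24).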

Additional observations from a re-analysis of the deposited data

Results flagged for a closer look

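In 4 of 48 groups of 6 libraries at the named peaks, 1 library stood apart from the other 5 by Dixon's test at the 95% level, where chance gives about 1 in 20. At the RUNX2 peak chr6:45377024-45378757, control replicate 1 held 146.8 normalised read counts, and the other controls held 100.1 to 115.4. At the RUNX3 distal start, chr1:24964464-24965831, control replicate 4 held 76.3, and the other controls held 109.5 to 127.3. At chr20:33689927-33690953 beyond CBFA2T2, knockdown replicate 6 held 45.7, and the others held 29.7 to 35.6. At chr16:88839872-88841101 beyond CBFA2T3, knockdown replicate 2 held 112.6, and the others held 125.5 to 130.6. The call of none of these 4 peaks changed when that library was left out.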

How the results depend on the processing

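The 23 called members were 21 to 23 over the fits without 1 library each, and edgeR, TMM or total-count size factors, the fit without batch and the stricter adjusted p gave 20 to 23. A count of at least 10 in every library left 32 members and 12 calls (6 gained, 6 lost), and 9 of the 23 calls were at peaks this filter removes. A fold over 2 left 9 calls (7 gained, 2 lost). All peaks gave 32.2% called with the count filter and 17.1% with a fold over 2. The window without flanks left 13 calls among 26 peaks. Centring on 10 Mb windows gave 21. In batch 1 edgeR called 13 members against 6, and leaving out 1 library gave 1 to 5, with 1 without knockdown replicate 1, 1 without knockdown replicate 2 and 2 without control replicate 3. In batch 2 leaving out 1 library gave 7 to 13 against 15, with 7 without control replicate 5, 8 without knockdown replicate 5 and 9 without knockdown replicate 4. The fit with the replicate block in place of batch gave 22 calls, and the replicate numbers do not pair the libraries. Of the 23 calls, 18 were kept in every refit that tested them at the thresholds of the report, which leaves aside the stricter fold and p. The RUNX2 peak chr6:45377024-45378757 (log2 fold change -0.02) changed sign with total counts (0.00395) and with the count filter (0.0524), and lay between -0.0697 and 0.0455 over the fits without 1 library. The RUNX3 distal start, chr1:24964464-24965831 (-0.02), did so too (0.000972 and 0.0506), and lay between -0.104 and 0.0384. Neither was called in any setting. The cause of these changes was not tested. Low counts limit the smallest peaks, such as the gain at CBFA2T2 and the gain at the RUNX2 distal start.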
